A study of Homo sapiens with 12 samples.

Results

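Insulin-like growth factor binding proteins (IGFBPs) are secreted proteins that hold insulin-like growth factors outside the cell. The family described here is IGFBP1 to IGFBP7 with the ligand IGF2, and its 8 genes were taken by name from the 23228 genes of the count files. The family was chosen by name but selected on the measured responses of these same libraries, in which IGFBP5 was already known to respond in the comparisons with DMSO, so the members' changes, standard errors and adjusted p-values below are a description and support nothing further. Of the 8 genes, 6 passed the filter on low counts, as did 14874 genes in all. IGFBP1 and IGF2 had 0 counts in all 12 libraries.

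The polyadenylated RNA of SUM149PT cells, a long-established inflammatory breast cancer line, was sequenced in 4 groups of 3 libraries lettered A, B and C. Cells of the tazemetostat and combination groups were kept in 5 µM tazemetostat from day -5, through passages on day -3 and day -1, and the DMSO and ipatasertib groups were kept in DMSO over the same days. At the last passage 250000 cells were put in each 6 cm plate. On day 0 all groups went into 2% serum, with 5 µM ipatasertib added in the ipatasertib and combination groups, and RNA was taken at 24 h. Tazemetostat inhibits EZH2, the enzyme of Polycomb repressive complex that methylates histone H3 at silenced genes, and ipatasertib inhibits the AKT kinases, which act downstream of the insulin and IGF receptors. One cell line was used, and separate cultures for the letters are not stated, so the p-values measure the spread between these libraries, which may be technical.

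IGF1 and IGF2 act through IGF1R and the insulin receptor INSR, while IGF2R takes up IGF2 for degradation. IGFBP1 to IGFBP6 bind the ligands tightly and either keep them from the receptor or release them after cleavage by proteases such as PAPPA, and IGFBP7 binds them weakly. In the mammary gland IGFBP5 is known for its rise during involution, and AKT signalling holds back FOXO factors, which act on genes of this system such as IGFBP1, INSR and IRS2.

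Gene counts per library ran from 22355242 to 49970540, so that 3 counts, the limit a count of 0 allows, came to 0.0602 to 0.130 CPM (counts divided by each library's TMM-scaled size, in a common unit). This limit covers counting error only. Reads outside every gene made up 19.1% to 20.6% of a library in DMSO cells, 23.9% to 25.7% for ipatasertib, 17.8% to 18.7% for tazemetostat and 22.8% to 24.5% for the combination; their part in the results was not tested. Within their groups, tazemetostat A and combination B were the least like their replicates, with a chi-square per degree of freedom of 17.3 to 19.1 and 14.4 to 24.9 in their pairs, against 2.64 to 6.68 in the other 8 pairs, and values without them are given where they matter. The epithelial markers EPCAM, CDH1, KRT8, KRT18 and KRT19 were present in every library, with a summed level of 1569 to 2309 CPM. PGR had 10 counts in all libraries together and ESR1 at most 5.86 CPM. ERBB2, listed with these receptors, had 34845 counts and reached 101.4 CPM. The 4 leukocyte markers summed to 212 to 403 CPM per library, nearly all of it from CD68, which had 124922 counts in all. PTPRC had 293 counts and CD3E 7. Of the adipocyte markers, PLIN1 had 206 counts and ADIPOQ 1. Since this is RNA of whole cultures, fewer cells of a kind and less RNA per cell cannot be told apart.

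The promoters of 4 members are shown because they belong to the genes that rose most (IGFBP5 and IGFBP2) and those that fell (IGFBP4 and IGFBP6) with tazemetostat. Each is the 250 bases before a RefSeq start site in GRCh38.p14, written 5′ to 3′ on the gene's strand, and these positions come from RefSeq, since the deposited counts carry none. Capitals mark matches to 4 motifs searched on both strands: GTAAACA, a core bound by forkhead factors, CAAAACA, an insulin response element core, CCGCCC, a GC box, and TATAAA. The promoter table used here held 5 of the 8 members. For IGFBP2, which has several starts, the one shown has the most CpG.
IGFBP5, chr2:216695550-216695799, minus strand: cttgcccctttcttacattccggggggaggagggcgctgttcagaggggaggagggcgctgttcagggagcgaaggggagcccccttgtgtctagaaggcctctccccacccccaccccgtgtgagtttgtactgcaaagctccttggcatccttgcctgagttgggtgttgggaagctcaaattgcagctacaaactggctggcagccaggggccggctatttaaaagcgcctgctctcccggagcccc
IGFBP2, chr2:216633170-216633419, plus strand: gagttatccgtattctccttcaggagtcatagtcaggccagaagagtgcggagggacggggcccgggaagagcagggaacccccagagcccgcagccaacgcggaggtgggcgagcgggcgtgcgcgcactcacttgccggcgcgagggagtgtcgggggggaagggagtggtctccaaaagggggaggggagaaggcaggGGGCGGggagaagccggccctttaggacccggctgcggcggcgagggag
IGFBP4, chr17:40443200-40443449, plus strand: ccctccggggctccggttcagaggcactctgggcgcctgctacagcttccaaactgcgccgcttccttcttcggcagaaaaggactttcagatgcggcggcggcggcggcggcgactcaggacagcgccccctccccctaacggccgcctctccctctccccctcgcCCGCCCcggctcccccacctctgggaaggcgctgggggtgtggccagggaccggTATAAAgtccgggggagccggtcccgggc
IGFBP6, chr12:53097417-53097666, plus strand: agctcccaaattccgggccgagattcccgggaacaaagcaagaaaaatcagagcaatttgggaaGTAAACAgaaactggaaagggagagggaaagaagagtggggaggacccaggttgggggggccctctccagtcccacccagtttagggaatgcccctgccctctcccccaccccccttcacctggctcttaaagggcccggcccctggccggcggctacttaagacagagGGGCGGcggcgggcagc
The IGFBP5 promoter had no match to any of the 4 motifs, 8 CpG and 61.2% GC. IGFBP2 and IGFBP4 had 22 and 24 CpG, against a median of 11 over 35116 promoters of the same length. A GC box was found in IGFBP2, IGFBP4 and IGFBP6, and 42.6% of all promoters hold one. IGFBP6 also held GTAAACA, found in 2.98% of all promoters, and IGFBP4 held TATAAA, found in 10.7%. CAAAACA, found in 4.30%, was in none of these 4. A match describes the letters and is no evidence that a factor binds.

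IGFBP5 changed most of the family. Its level was 3.05, 3.49 and 3.69 CPM in DMSO A, B and C, which rest on 130, 116 and 113 counts. With ipatasertib it was 3.81, 4.79 and 5.52 CPM, with tazemetostat 66.2, 69.2 and 72.7 CPM, and with the combination 341.5, 271.4 and 298.5 CPM. No 2 groups overlapped. Against DMSO the log2 change was 0.44 (SE 0.15) with ipatasertib, 4.36 (SE 0.11) with tazemetostat and 6.49 (SE 0.12) with the combination, or 1.36-fold, 20.5-fold and 89.7-fold higher. By size of change it ranked 50 with tazemetostat and 20 with the combination among 14874 genes. The smallest of these, with ipatasertib (adjusted p = 0.0145 by edgeR's quasi-likelihood test with Benjamini-Hochberg adjustment), was lost without DMSO A (log2 change 0.38, edgeR adjusted p = 0.0690) or without ipatasertib C (0.35, adjusted p = 0.0745).

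IGFBP2, a circulating carrier with an integrin-binding motif, followed tazemetostat. It stood at 6.00, 5.23 and 5.10 CPM in DMSO and at 4.94, 4.11 and 5.17 CPM with ipatasertib, where the groups overlapped. With tazemetostat the libraries read 38.2, 33.3 and 33.4 CPM, and with the combination 33.4, 30.65 and 34.7 CPM. Both groups with tazemetostat lay above both groups without it. The log2 change was 2.68 (SE 0.10) with tazemetostat and 2.59 (SE 0.10) with the combination, or 6.39-fold and 6.02-fold, and -0.21 (SE 0.12) with ipatasertib, which missed the threshold (edgeR adjusted p = 0.143). The combination did not differ from tazemetostat beyond the spread (log2 -0.09, SE 0.08, edgeR adjusted p = 0.378).

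IGFBP7, the weak binder, was low throughout and higher in each treated group. Its levels were 1.99, 1.53 and 1.86 CPM in DMSO, 3.59, 4.11 and 3.48 CPM with ipatasertib, 3.19, 2.98 and 3.45 CPM with tazemetostat and 6.27, 7.07 and 7.54 CPM with the combination. Every treated library lay above every DMSO library, and the combination above all others. Log2 changes against DMSO were 1.04 (SE 0.15), 0.83 (SE 0.14) and 1.95 (SE 0.14) with ipatasertib, tazemetostat and the combination, or 2.06-fold, 1.78-fold and 3.86-fold. The RefSeq span of POLR2B overlaps that of IGFBP7, to an extent not measured here. Whether the counting used strand was not stated, so reads of the 2 genes may not be fully separated. POLR2B had log2 changes of -0.12, -0.02 and -0.20.

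IGFBP3, the main carrier of IGFs in blood, was already well expressed and rose with each treatment. It read 71.1, 87.9 and 98.2 CPM in DMSO, 115.7, 119.3 and 119.6 CPM with ipatasertib, 97.8, 110 and 113.2 CPM with tazemetostat and 156.8, 179.6 and 169.8 CPM with the combination. The DMSO and tazemetostat groups overlapped, and the combination lay above every other library. The log2 change was 0.46 (SE 0.09), 0.32 (SE 0.09) and 0.98 (SE 0.09) with ipatasertib, tazemetostat and the combination. The call with tazemetostat (edgeR adjusted p = 0.00607) was lost without DMSO A (log2 0.18, adjusted p = 0.0712) or without tazemetostat C (0.25, adjusted p = 0.0525).

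IGFBP4, an inhibitory carrier that PAPPA cleaves, had the highest level per length under DMSO and was lower in both groups with tazemetostat. It read 257, 272.7 and 268.3 CPM in DMSO, 290.4, 300.5 and 289.3 CPM with ipatasertib, 184.6, 165.4 and 168.9 CPM with tazemetostat and 203.5, 166.9 and 188.5 CPM with the combination. All 6 libraries with tazemetostat lay below all 6 without it. IGFBP4 fell by 0.62 (SE 0.07) on the log2 scale with tazemetostat and by 0.51 (SE 0.07) with the combination. With ipatasertib the difference of 0.14 (SE 0.07) missed the threshold (edgeR adjusted p = 0.0778), although the groups did not overlap, but it passed in 8 of 19 alternatives, among them DESeq2 (0.16, adjusted p = 0.0482), libraries scaled by total count (0.26) and a fit without combination B (0.17).

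IGFBP6, which prefers IGF2 as its ligand, moved in opposite directions with the 2 inhibitors. It read 99.25, 108.9 and 104 CPM in DMSO, 136.4, 149.2 and 137.6 CPM with ipatasertib, 91.2, 76.4 and 79.9 CPM with tazemetostat and 128.7, 93.7 and 126.9 CPM with the combination, where B alone fell below DMSO. The log2 change was 0.44 (SE 0.09) with ipatasertib and -0.33 (SE 0.09) with tazemetostat, and 0.16 (SE 0.09) with the combination, which missed the threshold (edgeR adjusted p = 0.124). Without combination B the last became 0.32 (adjusted p = 0.00015), and with total-count scaling 0.30 (adjusted p = 0.0088). The combination lay below ipatasertib by a log2 change of -0.28 (SE 0.09, edgeR adjusted p = 0.0249). This call was lost without combination B (-0.15, edgeR adjusted p = 0.0880) and without ipatasertib B (-0.25, edgeR adjusted p = 0.0884). A fit of only these groups lost it too (edgeR adjusted p = 0.0586). Without both tazemetostat A and combination B the call was kept (-0.15, edgeR adjusted p = 0.0174).

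IGFBP1, whose gene insulin represses in liver, and IGF2, a fetal growth factor expressed from an imprinted locus, stayed under the 0.0602 to 0.130 CPM that 3 counts come to. The RefSeq genes INS-IGF2, MIR483 and IGF2-AS overlap IGF2 and also had 0 counts. HTSeq can set reads of overlapping exons aside as ambiguous, so the 0 does not show that IGF2 RNA was absent. The other ligand genes of the axis, IGF1 and INS, were at 0 too.

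**Figure D1:**
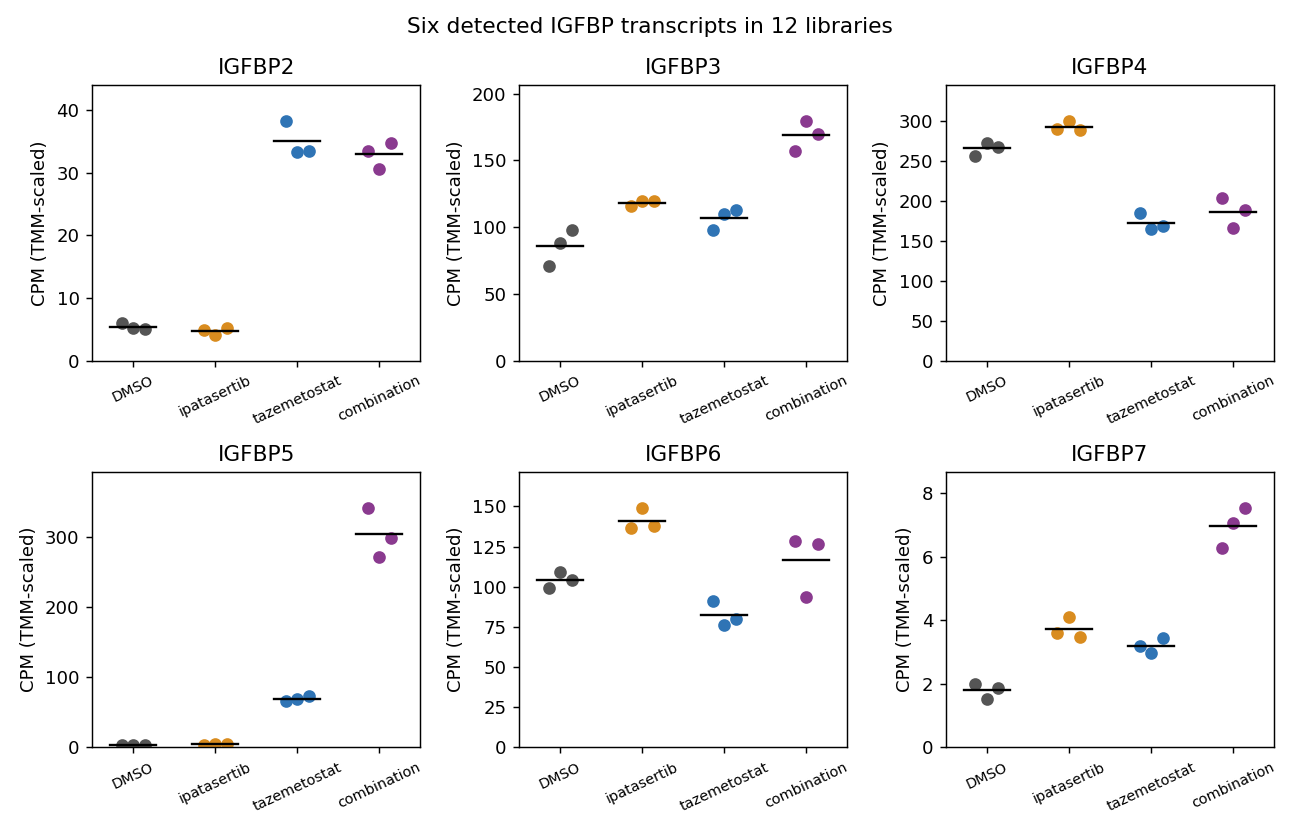
Level of each detected member in CPM (vertical axes, linear and starting at 0) in each library (points) of the 4 groups (horizontal axis), with a line at each group's mean. The IGFBP5 libraries lie at 3.05 to 3.69 CPM in DMSO and at 271.4 to 341.5 CPM in the combination.

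Of the 6 tested members, the edgeR fit over all genes called 4 higher and 0 lower with ipatasertib, where it called 25.4% of all genes higher and 28.7% lower. Tazemetostat gave 4 higher and 2 lower, beside 25.1% and 20.9% of all genes. The combination gave 4 higher and 1 lower, beside 36.5% and 34.5%. The members' median log2 change was 0.44, 0.58 and 1.46 in these comparisons, against -0.01, 0.02 and 0.02 over all genes. With libraries scaled by total count, the higher share of called genes went from 46.9% to 63.1% with ipatasertib, from 54.6% to 69.6% with tazemetostat and from 51.4% to 62.6% with the combination. The median of all genes moved by up to 0.14 under that scaling. Without tazemetostat A and combination B, the log2 changes with tazemetostat and with the combination were 4.37 and 6.59 for IGFBP5, 2.58 and 2.66 for IGFBP2, 0.81 and 1.96 for IGFBP7, 0.37 and 0.96 for IGFBP3, -0.69 and -0.42 for IGFBP4 and -0.43 and 0.32 for IGFBP6.

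Adding tazemetostat to ipatasertib gave 4 members higher and 2 lower, beside 21.8% and 17.3% of all genes. IGFBP5 rose by 6.04 (SE 0.12), IGFBP2 by 2.79 (SE 0.10), IGFBP7 by 0.91 (SE 0.13) and IGFBP3 by 0.51 (SE 0.09), while IGFBP4 fell by 0.66 (SE 0.07) on the log2 scale. Adding ipatasertib to tazemetostat gave 4 higher and 0 lower, beside 29.8% and 30.8%. IGFBP5 rose by 2.13 (SE 0.09), IGFBP7 by 1.12 (SE 0.12), IGFBP3 by 0.66 (SE 0.09) and IGFBP6 by 0.50 (SE 0.09). These comparisons share the combination libraries. Between the 2 inhibitors, tazemetostat against ipatasertib, 4 members were called, beside 56.3% of all genes, with IGFBP5 at 3.91 (SE 0.11) and IGFBP2 at 2.88 (SE 0.10) higher and IGFBP6 at -0.77 (SE 0.09) and IGFBP4 at -0.76 (SE 0.07) lower.

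**Figure D2:**
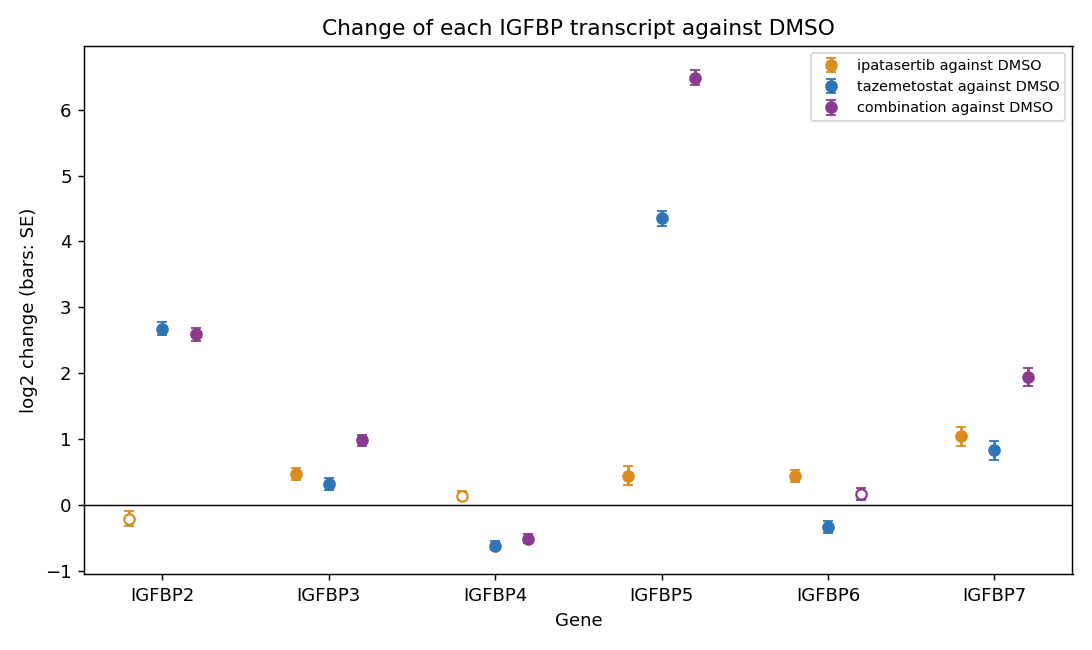
Log2 change against DMSO (vertical axis) of each detected member (horizontal axis) for the 3 treatments, as points with bars for the SE, filled where the adjusted p was under 0.05 and open elsewhere. IGFBP5 lies at 4.36 and 6.49 and IGFBP2 at 2.68 and 2.59 in the groups with tazemetostat, and IGFBP4 lies below 0 in both.

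For most members the combination came near the sum of the single log2 changes. The sum and the observed value were 2.47 and 2.59 for IGFBP2, 0.79 and 0.98 for IGFBP3, -0.48 and -0.51 for IGFBP4, 0.11 and 0.16 for IGFBP6, and 1.87 and 1.95 for IGFBP7. IGFBP5 differed, with a sum of 4.80 and an observed 6.49, which is 27.8-fold from the product of the single folds and 89.7-fold as observed. The interaction, the log2 change in the combination minus that sum, was 1.69 (SE 0.17, edgeR adjusted p = 5.41e-06) and made IGFBP5 the 1 member called, beside 3.62% of all genes. With total-count scaling 27.8% of the genes called for the interaction were higher, against 51.6%. IGFBP5 ranked 99 of 14874 by size. The other members' interactions lay between -0.03 and 0.19 and none was called, which does not show that they are additive. Without tazemetostat A and combination B the interaction was 1.75 for IGFBP5, and IGFBP6 was called as well (0.29, edgeR adjusted p = 0.00243). That fit called 4766 genes for the interaction, against 539 with all libraries, so the added call is no result about IGFBP6.

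**Figure D3:**
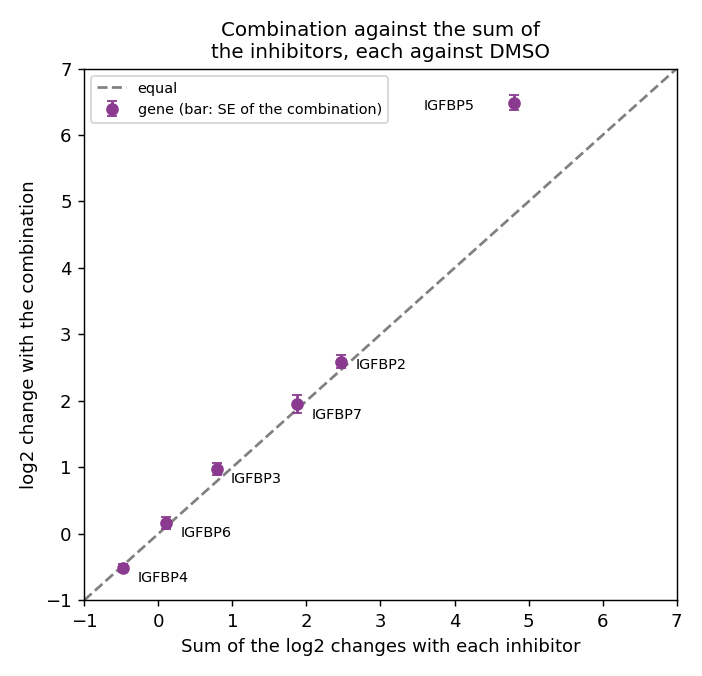
Observed log2 change of each detected member with the combination (vertical axis) against the sum of its log2 changes with each inhibitor (horizontal axis), with bars for the SE of the observed change and a dashed line of equality. IGFBP5 lies above the line by 1.69, and the other 5 members lie within 0.19 of it.

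Levels can be set against each other only per length, here as CPM per kilobase of GENCODE v29 exon, with all exons of a gene merged. The annotation behind the counts and the isoforms present are not known, so the order and the shares depend on these lengths. Under DMSO the order was IGFBP4 at 121 ± 3.68 (SD, n = 3), IGFBP6 at 77.5 ± 3.59, IGFBP3 at 32.6 ± 5.21, IGFBP2 at 3.47 ± 0.31, IGFBP7 at 0.99 ± 0.13 and IGFBP5 at 0.549 ± 0.0532, with no overlap between neighbours. With the combination IGFBP6 (86.7 ± 14.7) and IGFBP4 (84.7 ± 8.36) overlapped, followed by IGFBP3 at 64.1 ± 4.34, IGFBP5 at 48.9 ± 5.69, IGFBP2 at 21 ± 1.33 and IGFBP7 at 3.83 ± 0.355. IGFBP5 thus went from 0.232% of the members' summed level under DMSO to 5.18% with tazemetostat and 15.8% with the combination, while IGFBP4 went from 51.3% to 36.4% and 27.4%. Summed over the 6 members, the level was 236 ± 11.1 (SD, n = 3) in DMSO, 289.1 ± 8.32 in ipatasertib, 216 ± 9.08 in tazemetostat and 309.2 ± 24.8 in combination libraries.

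**Figure D4:**
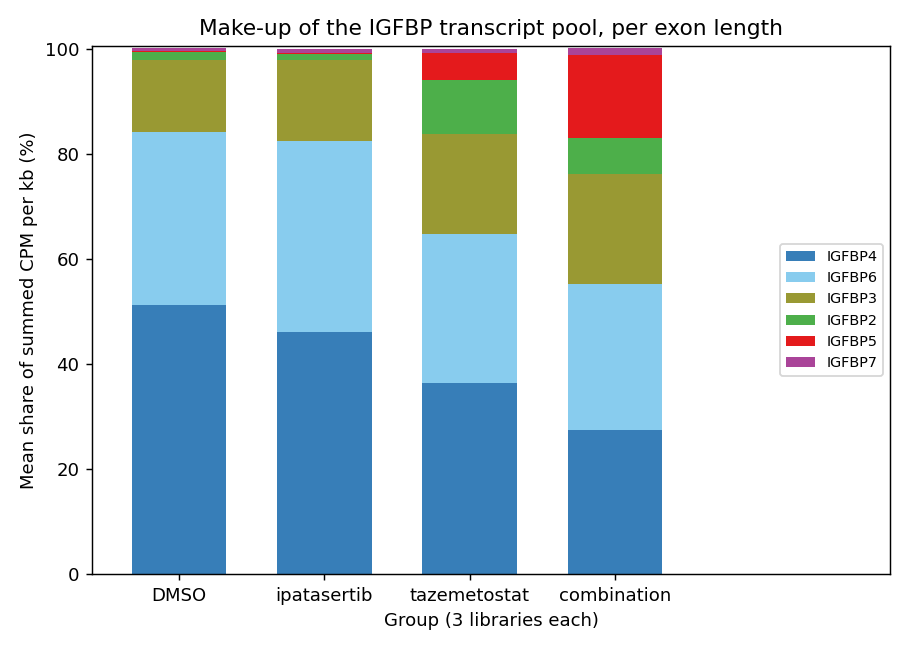
Stacked bars of the mean share of each detected member in their summed CPM per kilobase (vertical axis, percent) in the 4 groups of 3 libraries (horizontal axis). IGFBP5 takes 0.232% under DMSO and 15.8% with the combination, and IGFBP4 falls from 51.3% to 27.4%.

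IGFBP2 and IGFBP5 are neighbours on chromosome 2 in RefSeq order and point toward each other, with no gene of the files between them. Beside them, RPL37A had log2 changes of 0.45, 0.16 and 0.52 with ipatasertib, tazemetostat and the combination, and SMARCAL1 had 0.12, -0.20 and -0.05. TNP1 and DIRC3 on the other side had too few counts to be tested. The large rise of IGFBP2 and IGFBP5 was thus not shared by RPL37A and SMARCAL1. RefSeq places 7 and 9 other genes between these and IGFBP2. Genes named beside a member are the nearest that the count files hold, and other RefSeq genes can lie between. There are 17 between IGFBP3 and TNS3 and 22 between IGFBP7 and LPHN3. IGFBP1 and IGFBP3 are also neighbours, on chromosome 7. With tazemetostat ADCY1, beyond IGFBP1, rose (log2 change 1.02), and TNS3 (-0.72) and C7orf65 (-1.08), beyond IGFBP3, fell, while SEPT7P2 (-0.05) did not pass the threshold. Beside IGFBP4, TOP2A had 0.30 and TNS4 0.45 with tazemetostat, against -0.62 for IGFBP4 itself, while GJD3 did not pass the threshold (0.07). Beside IGFBP6, SPRYD3 (-0.21) and TENC1 (-0.66) fell with tazemetostat, as IGFBP6 did, and SOAT2 (0.16) and CSAD (-0.30) did not pass. Beside IGFBP7, LPHN3 fell with ipatasertib (-0.90) and rose with tazemetostat (0.90), and C4orf14 rose with ipatasertib (0.31) and did not pass with tazemetostat (0.03). Over the 12 libraries the log2 CPM of IGFBP2 and IGFBP5 had a Pearson r of 0.94, and IGFBP3 and IGFBP7 one of 0.93, but these values reflect the differences between 4 groups and carry no p.

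By the same measure, the 3 genes most like IGFBP5 were SCD, a fatty acid desaturase (r = 0.9955), NOS1 (r = 0.995) and TRIB2, a pseudokinase (r = 0.9945). Those most like IGFBP2 were GRB10, an adaptor that dampens insulin receptor signalling (r = 0.996), ECEL1 and SHH. IGFBP3 was most like SNCAIP (r = 0.988), RARRES1 and SERPINE2, IGFBP4 like TNFRSF1A, MRC2 and SEC14L1, IGFBP6 like UNC93B1, NUCB1 and ADCK4, and IGFBP7 like SPRED2, AKR1C2 and ANKH. Ranked by Spearman rho instead, IGFBP2, IGFBP4 and IGFBP5 kept 0 of their 3 and IGFBP3 kept all 3. A high r does not mean changes of like size. With tazemetostat and the combination the log2 changes were 1.21 and 1.66 for SCD, 7.38 and 9.66 for NOS1 and 1.31 and 1.97 for TRIB2. For SHH they were 7.80 and 7.69.

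The other genes of the IGF axis were taken from a list of 52 genes by role, of which 41 were tested. With ipatasertib 15 rose and 7 fell, beside 25.4% of all genes higher and 28.7% lower. With tazemetostat 15 rose and 19 fell, beside 25.1% and 20.9%. With the combination 21 rose and 14 fell (24 and 10 with total-count scaling), beside 36.5% and 34.5%. The median log2 change was 0.07, -0.11 and 0.29, against -0.01, 0.02 and 0.02 over all genes tested.
Among receptors, IGF1R stood at 145.8 ± 1.53 CPM (SD, n = 3) under DMSO and 174.5 ± 5.56, 154 ± 6.00 and 209 ± 3.40 CPM in the treated groups, with log2 changes of 0.26 (SE 0.05), 0.08 (SE 0.05, edgeR adjusted p = 0.235) and 0.52 (SE 0.05). INSR, at 3.30 CPM in DMSO, rose by 1.13 (SE 0.11), 1.75 (SE 0.10) and 2.43 (SE 0.10). IGF2R did not pass the threshold with ipatasertib (-0.07) and fell with tazemetostat (-0.40) and the combination (-0.19). The adaptors IRS1 and IRS2 went opposite ways. IRS1 had log2 changes of -0.72, -0.56 and -1.35 and IRS2 of 1.42, 0.60 and 2.22. GRB10 rose by 2.22 (SE 0.10) with tazemetostat and 2.21 (SE 0.10) with the combination.
Of 15 tested IGFBP proteases, 7 rose and 2 fell with ipatasertib, 5 rose and 6 fell with tazemetostat, and 8 rose and 4 fell with the combination, beside the same shares of all genes. PAPPA went from 336.7 CPM in DMSO to 189, 244 and 124 CPM in the treated groups, and PLAU fell with each treatment (-1.05, -0.30 and -1.35). MMP2, another protease, rose with ipatasertib (0.85) and fell with tazemetostat (-0.61). ADAM28 rose by 1.54 (SE 0.45), 1.38 (SE 0.43) and 2.48 (SE 0.40), from 24 counts over the 3 DMSO libraries. MMP3 rose with tazemetostat (1.93, SE 0.51), from 17 to 83 counts. Among proteins that bind IGF2 mRNA, IGF2BP1 and IGF2BP3 rose with tazemetostat and IGF2BP2 fell (-0.27, SE 0.05), and PLAG1, a known activator of IGF2, rose. IGF2BP1 went from 4 counts over the 3 DMSO libraries to 724 with tazemetostat and 251 with the combination. PLAG1 went from 31 to 571 and 737 counts. IGF2BP3 rose by 1.05 (SE 0.17) with ipatasertib, 2.92 (SE 0.14) with tazemetostat and 3.02 (SE 0.14) with the combination. IGF2 itself had 0 counts. The interaction was called for 8 of the 41, beside the 3.62% of all genes. ITGB3, an integrin subunit, had 2.33 (SE 0.19), PLAT 0.99 (SE 0.07) and MMP7 0.96 (SE 0.18). ITGA5, LRP1 and TIMP1 lay between 0.34 and 0.44, and IGF2BP3 was the 1 below 0, at -0.95 (SE 0.20).

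**Figure D5:**
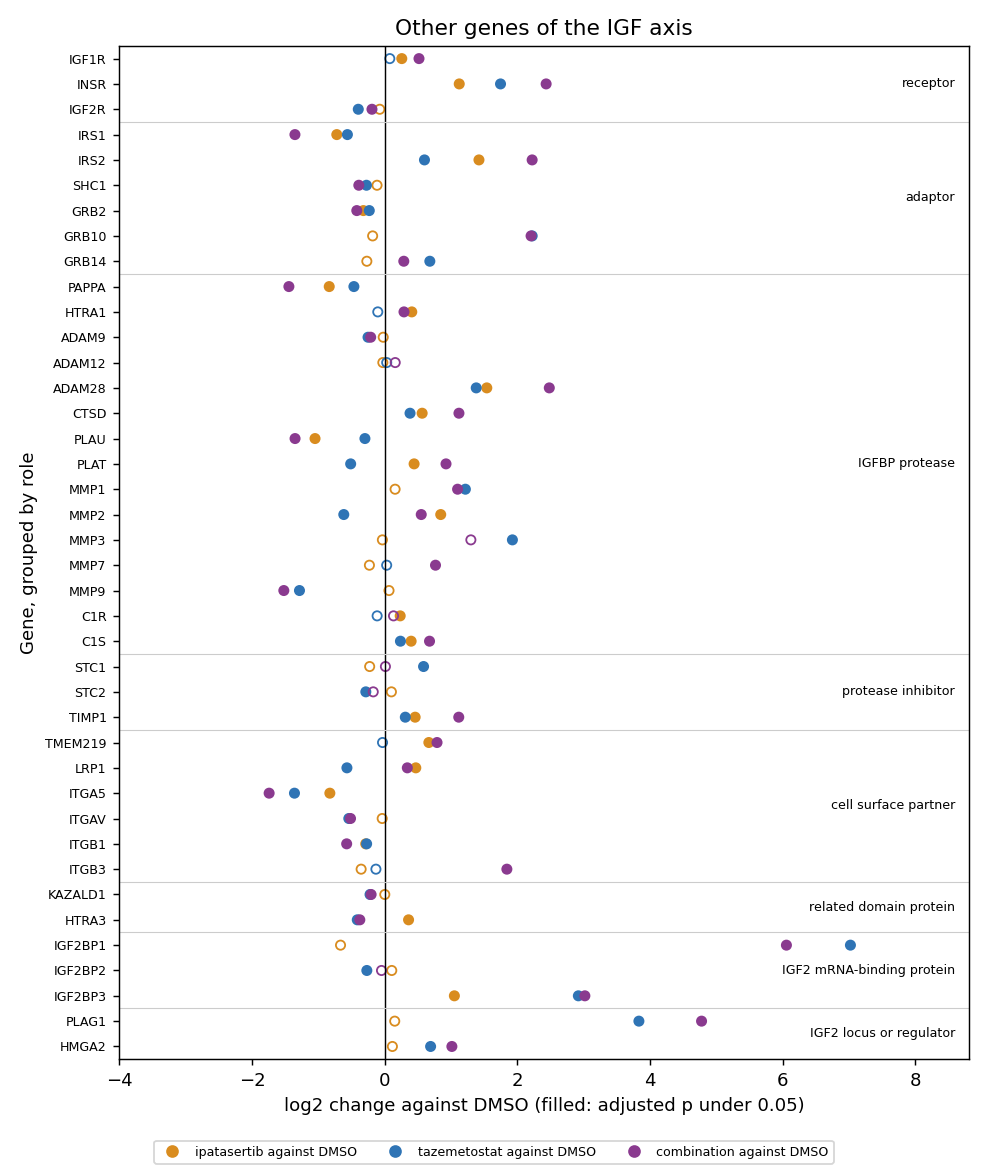
Log2 change against DMSO (horizontal axis) of the tested IGF axis genes reported here (vertical axis, grouped by role) for each treatment (coloured points, filled where the adjusted p was under 0.05 and open elsewhere). The points of IGF2BP1 rest on 4 counts in DMSO and are no measured fold. INSR and IRS2 lie to the right of 0 in all 3 treatments, and IRS1 and PAPPA to the left.

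Marker lists of cell types moved too, in both directions, and their part in the changes of the members was not tested. The 9 fibroblast and stromal markers, of which 7 were tested, summed to 605 to 626 CPM in DMSO, 401 to 440 CPM with ipatasertib, 156 to 160 CPM with tazemetostat and 122 to 128 CPM with the combination. With ipatasertib 3 rose (DCN by 0.41, LUM by 0.31 and PDGFRB by 1.05 on the log2 scale). Another 3 fell (COL1A1 by 1.06, COL1A2 by 1.10 and COL3A1 by 1.21), so the lower sum was that of the collagens. PDGFRB had only 21 counts over the 3 DMSO libraries and 37 with ipatasertib. COL1A2 had 67 and 26, and its groups overlapped. With tazemetostat and with the combination 0 rose and 6 fell, beside 20.9% and 34.5% of all genes lower. PDGFRA had 11 counts in all and THY1 27, while DCN and COL1A1 reached 132.8 and 446.1 CPM. The 5 basal markers summed to 1426 to 1483, 523 to 536, 1127 to 1252 and 427 to 489 CPM in the same order of groups. The keratins KRT5, KRT14 and KRT17 fell with each treatment. TP63 rose with each (0.73, 0.82 and 0.78), and EGFR rose with ipatasertib (0.15) and the combination (0.54). Of the 5 epithelial markers, 4 fell with ipatasertib, beside 28.7% of all genes lower, while EPCAM did not pass the threshold (0.06). With tazemetostat 1 epithelial marker rose and 2 fell, beside 25.1% of all genes higher and 20.9% lower. With the combination 1 rose and 3 fell, beside 36.5% and 34.5%. KRT19 was the 1 that rose (0.30 and 0.22). The endothelial list summed to at most 6.70 CPM in a library, and its tested members rose with ipatasertib and the combination, PECAM1 by 1.67 and 2.22 and CDH5 by 1.17 and 2.26. PTPRC rose by 1.04 and 2.46 and PLIN1 by 1.22 and 1.80 in the same comparisons, and CD68 fell with each treatment (-0.44, -0.42 and -0.66).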

How the data were processed

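The submitters' processing notes name the tools STAR, SAMtools, HTSeq and DESeq2 and the build hg19. Tool versions, the gene annotation and how strand was treated: not given in the sources used here. RNA was extracted with the RNeasy Plus kit and libraries made with Kapa Hyper Prep, per the labels' protocols. The authors deposited raw counts per gene for each of the 12 libraries, used here as deposited. The 5 summary lines that name no gene held 29.8% to 38.6% of reads and were left out. A second table deposited by the authors holds normalised signal. Of its 23228 lines 23202 matched by symbol, and its values equalled the counts divided by 1 factor per library within a relative tolerance of 1e-06. It was not tested.

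Counts were analysed in R 4.3.3 with edgeR 4.0.16 (filterByExpr, TMM factors, quasi-likelihood F-test, 1 coefficient per group, all 12 libraries, 7 comparisons), with Benjamini-Hochberg adjustment over 14874 genes and a threshold of 0.05. The common biological coefficient of variation was 0.0645. CPM are TMM-scaled. The standard error of a log2 change is its size divided by the square root of F. The steps were run on simulated counts in which a small set of genes changed, up and down alike, in the combination only. That setting does not test the scaling where a large share of genes change, as here. Alternatives were DESeq2 1.42.0, total-count scaling, no filter, only the groups compared, a 1.5-fold test, a replicate block and each replicate left out. Named genes were all members, the receptors, IRS1 and IRS2, and per comparison against DMSO the 8 called axis genes with the largest change. Also named were the 2 nearest genes on each side of a member that the count files hold. For each tested member the 3 genes with the highest Pearson r of log2 CPM (prior count 2) were added. Some genes of these lists are not reported here. A few other genes were named after their values were seen. The members and lists were chosen with earlier results of these data known. Promoter sequences and gene order come from RefSeq (GRCh38.p14) and exon lengths from GENCODE v29, matched by symbol; no coordinate was moved between builds.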

Additional observations from a re-analysis of the deposited data

Results flagged for a closer look

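IGFBP5 responded to ipatasertib differently depending on whether tazemetostat was present. In cells kept in DMSO its log2 change with ipatasertib was 0.44, and in cells kept in tazemetostat it was 2.13, so the test of the difference gave 1.69 on the log2 scale (SE 0.17, edgeR adjusted p = 5.41e-06, n = 3 libraries per group). All 3 combination libraries lay above all 3 tazemetostat libraries. Over the 18 alternatives tried the difference lay between 1.54 and 1.82 on the log2 scale, with adjusted p at most 0.000921. The alternatives refit the same libraries. The response of IGFBP5 was already known when the family was chosen, so these values are a description and support nothing further.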

How the results depend on the processing

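Over 42 member changes and their alternatives, 741 of 792 values kept their direction and side of the threshold, 21 lost the call (14 of them in the test against a 1.5-fold change), 20 gained it and 10 changed sign. None of the sign changes was called in its alternative (lowest adjusted p 0.235 by edgeR). They were the combination against tazemetostat for IGFBP2, which became 0.072 without tazemetostat A and combination B (leave-one-out range -0.10 to 0.0071), and 3 interactions. For IGFBP4 the interaction became 0.10 without both libraries (leave-one-out range -0.0863 to 0.0534), for IGFBP6 the leave-one-out range was -0.0017 to 0.21 and for IGFBP7 -0.0065 to 0.19. The test against a 1.5-fold change called 1, 2, 3 and 2 members for ipatasertib against DMSO, tazemetostat against DMSO, and the combination against ipatasertib and against tazemetostat, in place of 4, 6, 6 and 4. The same test called 1089, 1094 and 3849 genes against DMSO for the 3 treatments, 1121 and 1999 for the combination against each inhibitor, 1671 for tazemetostat against ipatasertib and 16 for the interaction, and 8, 9, 19, 12 and 12 IGF axis genes. Genes called for the interaction, 539, became 932 with DESeq2, 905 without the filter, 4766 without tazemetostat A and combination B, and 243 to 2443 with 1 replicate left out, and the same removal of both libraries called 2 members, IGFBP5 and IGFBP6 (0.29, adjusted p = 0.00243). IGFBP4 for the combination against tazemetostat was called without tazemetostat A (0.18), without combination B (0.22), without both (0.27) and with total-count scaling (0.17), and the cause of these changes was not tested. With the replicate block the called members stayed at 4, 6, 5, 6, 4, 4 and 1 in the 7 comparisons, with 8250, 7124, 10699, 6034, 9213, 8581 and 753 genes called. What the letters share beyond a name is not stated. Same-letter libraries correlated at -0.0665 to 0.30 in their deviations from the group means, against -0.34 to 0.18 for different letters. The highest values were those of tazemetostat A with combination A (0.30) and tazemetostat B with combination B (0.21). Tazemetostat C with combination C had -0.04. Of the 12 libraries, 3 correlated best with their own letter.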
